A study of Rattus norvegicus with 30 samples.

Results

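The liver's acute phase proteins and the receptors that call them up were followed through 10 genes, Hamp, Crp, Lbp, Lcn2, A2m, Serpina3n, C5, Mbl2, Il6r and Il1r1, in cultured rat hepatocytes given phenobarbital. The members are every probe set that the array's annotation gives to 1 of these symbols alone. They are 10 of the 14217 genes with such a probe set. The rule found 13 probe sets among the 31042 that are not array controls, with 1 for each gene except Mbl2, which had 2, and Il1r1, which had 3. All 13 passed the filter on low signals, 11 of them in every group. Of the Il1r1 probe sets, 2 reached the filter level only through the wells at 3000 µM and 24 h, where they were highest, so they are described without a test and the counts of members below run over the other 11 probe sets.

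The groups were hepatocytes given 3000 µM phenobarbital for 48 h or 24 h, 300 µM for 48 h or 24 h, and vehicle for 48 h or 24 h, with 5 wells and 5 arrays in each, 30 arrays in all. All wells held male Sprague Dawley rat hepatocytes thawed from frozen stock, kept on collagen under a Matrigel overlay and dosed on culture day 3. The labels call the vehicle water in one place and culture media in another. They describe the 5 wells of a group as independent cultures and name no animals or donors, so the p-values measure the spread between wells, which may be technical.

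Phenobarbital activates the nuclear receptor CAR and is the classical inducer of drug-metabolising enzymes in liver. The acute phase response is the shift in the plasma proteins a hepatocyte makes during infection or injury. It is driven mainly by interleukin-6, acting through Il6r and the transcription factor STAT3, and by interleukin-1, acting through Il1r1 and NF-kB. Hepcidin, the product of Hamp, also answers to iron through BMP and SMAD signalling.

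Each signal is the linear intensity of a probe set, scaled so that all arrays share the same trimmed mean. Signals were therefore compared between groups for 1 probe set and never between probe sets. On such arrays of whole wells, fewer cells of a type and less RNA per cell cannot be told apart. Of 10 fixed hepatocyte markers 9 were on the array, and all 9 stood at or above the filter level in every group. Their summed signal was 387595 to 650769 at 3000 µM against 432977 to 505876 with vehicle at 48 h, and 426737 to 455910 at 3000 µM against 493444 to 668273 with vehicle at 24 h. At 3000 µM, 4 of these 9 markers fell at 48 h (median log2 change +0.088) and 6 fell at 24 h (median -0.29), and 0 rose. Among all probe sets tested, 19.9% were called lower at 48 h and 14.8% at 24 h. With array medians centred 4 fell and 1 rose at each time, with medians of +0.13 at 48 h and -0.22 at 24 h. After quantile normalization 4 fell at each time and 1 rose at 48 h, with medians of -0.021 and -0.078. Without the 2 arrays described next, 4 fell and 0 rose at 48 h, and 7 fell and 1 rose at 24 h. Macrophage markers reached the filter level in 5 to 8 of 11 genes, with summed signals of 11450 to 13508 at 3000 µM against 9911 to 12251 with vehicle at 48 h, and 13405 to 14860 at 3000 µM against 12761 to 14344 with vehicle at 24 h. Lyz2, by far the brightest of them, carried most of these sums, and of 8 tested, 2 rose and 1 fell at 48 h (median -0.029) and 2 rose and 2 fell at 24 h (median -0.24). Neutrophil markers reached the filter level in at most 1 of 6 genes in any group, and the part of these cells in the results was not tested. On 2 arrays the spiked hybridization controls were brighter than elsewhere, with mean log2 signals of 14.22 in 3000 µM well 4 at 48 h and 13.78 in vehicle well 1 at 24 h, against 12.60 to 12.97 on the others. Without these 2 arrays 8 member probe sets passed at 48 h and 10 at 24 h at 3000 µM, as with them, and 5 and 4 at 300 µM, against 5 and 5 with them.

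The promoters of Hamp and Serpina3n are shown because these genes fell strongly at 3000 µM and each holds a STAT motif. The table of RefSeq promoters (GRCr8) held 8 of the 10 genes, all but Lbp and A2m, and the 250 bases before each start site were read. For Il1r1, Mbl2 and Il6r this window lay inside the gene's annotated span, so the bases before the span were not read. The Lcn2 window lay partly inside its span. Capitals mark matches to the motifs searched on both strands. In Hamp they are a BMP response element, GGCGCC, at -129 to -124 and a STAT motif, TTCTTGGAA, at -117 to -109 from the start site. In Serpina3n they are a STAT motif, TTCCCAGAA, at -123 to -115.
Hamp, chr1:95300272-95300521, minus strand: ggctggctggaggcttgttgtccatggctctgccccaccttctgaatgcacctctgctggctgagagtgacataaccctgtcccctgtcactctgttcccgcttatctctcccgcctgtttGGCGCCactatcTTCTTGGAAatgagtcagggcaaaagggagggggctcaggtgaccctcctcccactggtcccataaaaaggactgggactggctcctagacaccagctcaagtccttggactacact
Serpina3n, chr6:129088142-129088391, plus strand: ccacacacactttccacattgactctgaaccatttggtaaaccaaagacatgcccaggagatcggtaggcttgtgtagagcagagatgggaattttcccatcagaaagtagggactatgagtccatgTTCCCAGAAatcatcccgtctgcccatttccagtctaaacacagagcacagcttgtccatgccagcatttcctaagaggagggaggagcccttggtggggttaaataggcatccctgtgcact
The motifs were STAT TTCNNNGAA, C/EBP TTGCNNAA, the BMP response element GGCGCC, the NF-kB motif and the direct repeat bound by CAR. Among all 33469 promoters of that length, 7.67% held the STAT motif, 9.22% the C/EBP motif, 0.974% the NF-kB motif, 8.69% the BMP element and 0.0538% the CAR repeat. Lcn2 held 1 C/EBP match, TTGCTCAA, at -191 to -184, and none of these letters stood in the windows of the other 5 genes. Those 5 genes were Crp, C5, Mbl2, Il6r and Il1r1. At 3000 µM C5 and Il6r also fell at both times, as did Mbl2 in its brighter probe set, while Crp rose. No matches overlapped, and a match is a run of letters, not a bound site. A link between the motifs and the changes was not tested.

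At 3000 µM most members fell. At 48 h, 7 genes fell, Crp rose, and Lcn2 and Il1r1 did not pass. The largest falls were in Hamp (3.47-fold lower than vehicle), C5 (3.10-fold lower), Serpina3n (3.07-fold lower) and Il6r (2.15-fold lower). At 24 h, 8 genes fell, and Il1r1 and Crp rose. The Mbl2 and Lcn2 falls at 24 h were lost with array medians centred, and the second Mbl2 probe set did not pass at 3000 µM at either time. At 300 µM, Crp and Mbl2 rose at both times, although the Mbl2 calls at 48 h were lost with array medians centred, and Hamp, A2m, C5 and Il6r passed at neither.

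By limma with Benjamini-Hochberg adjustment over 16596 probe sets, 8 of 11 member probe sets passed an adjusted p of 0.05 at 3000 µM and 48 h, 1 higher and 7 lower, where 39.4% of all probe sets passed (19.5% higher and 19.9% lower). At 3000 µM and 24 h, 10 passed, 2 higher and 8 lower, where 32% of all passed (17.3% higher and 14.8% lower). At 300 µM the counts were 5 at 48 h and 5 at 24 h, each 4 higher and 1 lower, where 1.54% of all passed at 48 h (0.813% higher and 0.723% lower) and 2.99% at 24 h (1.72% higher and 1.27% lower). The median change of the 10 genes was -0.71 at 48 h and -0.50 at 24 h with 3000 µM, beside -0.00083 and 0.0093 for all probe sets tested. With 300 µM it was 0.015 at 48 h and -0.11 at 24 h, beside -0.015 and 0.0013. All wells of one group lay outside the range of the other for 7 members at 3000 µM at each time, where 24.2% of all probe sets did so at 48 h and 24.5% at 24 h. At 300 µM this held for 4 members at each time, where 4.84% of all did so at 48 h and 5.3% at 24 h. With 5 wells against 5, any such pair has the smallest two-sided exact permutation p the design allows, 0.0079.

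**Figure D1:**
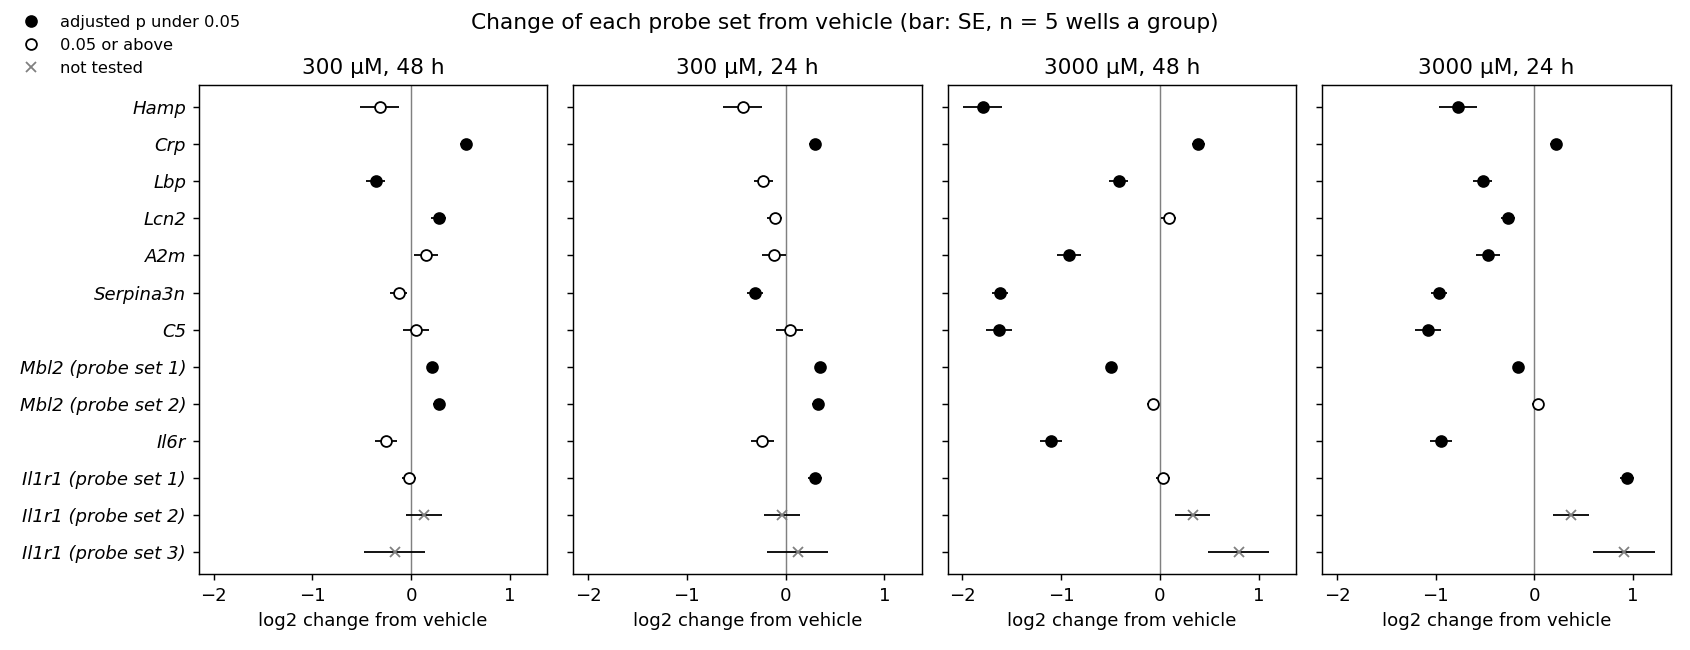
Log2 change from vehicle (x axis) of the 13 member probe sets (rows), in 1 panel for each dose and time. Points are the limma estimate and bars its SE, with 5 wells a group, and filled points have an adjusted p under 0.05. Crosses, marked as not tested, are the 2 Il1r1 probe sets that were in the fit but whose test results are set aside. At 3000 µM, Hamp (-1.80), C5 (-1.63), Serpina3n (-1.62) and Il6r (-1.10) lie farthest left at 48 h, and the first Il1r1 probe set lies at +0.94 at 24 h but +0.028 at 48 h.

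Among the receptors, Il6r, the chain that binds interleukin-6 and signals with gp130, fell at 3000 µM at both times. Its signals at 48 h were 706, 809, 746, 737 and 581 in the 5 wells at 3000 µM, against 1442, 1472, 1607, 1353 and 1799 with vehicle. At 24 h they were 718, 956, 734, 854 and 959 at 3000 µM, against 1379, 1516, 1869, 1641 and 1719 with vehicle. No well at 3000 µM reached the lowest vehicle well at either time. The signal was 2.15-fold lower at 48 h (log2 change -1.10 ± 0.11, adjusted p = 1.6e-09) and 1.93-fold lower at 24 h (log2 change -0.95 ± 0.11, adjusted p = 6.1e-08). At 300 µM the signals were 1408, 1220.1, 1449.5, 1225 and 1121 at 48 h and 1586, 1282, 1361, 1139.9 and 1547 at 24 h, which overlapped vehicle at both times and did not pass (adjusted p = 0.35 and 0.34).

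Il1r1, the signalling receptor for interleukin-1, was higher at 3000 µM at 24 h. Its brightest probe set, 1392946_at, had signals of 5245, 5633, 5164, 5461 and 5122 at 3000 µM, against 2682, 2586, 2807, 2838 and 3015 with vehicle, and every well at 3000 µM exceeded every vehicle well (1.91-fold higher, log2 change +0.94 ± 0.07, adjusted p = 2.4e-12). At 48 h the signals were 2862, 2849, 2750.4, 2759 and 2649 at 3000 µM, against 2681, 2653, 2705, 2610.1 and 2964 with vehicle. Those ranges overlapped and the change was +0.028 (adjusted p = 0.79). At 300 µM and 24 h it had 3598, 3784, 2824, 3168 and 3828. Against vehicle this was 1.23-fold higher (log2 change +0.30 ± 0.07, adjusted p = 0.011), with overlapping ranges, and it did not pass without 300 µM well 2 (adjusted p = 0.053), with these 2 groups fitted by themselves (0.078) or with array medians centred (0.0999). At 300 µM and 48 h the change was -0.018 (adjusted p = 0.96). The other Il1r1 probe sets were dim. Probe set 1370750_a_at stood at the filter level on 4 of 30 arrays and spanned 242 to 502 at 3000 µM against 141 to 229 with vehicle at 48 h, and 334 to 454 against 118 to 276 at 24 h. Probe set 1369255_at stood at that level on 6 of 30 arrays and spanned 304 to 424 at 3000 µM against 226 to 343 with vehicle at 48 h, and 368 to 515 against 230.5 to 371 at 24 h. Both entered the fit through the wells in which they were highest, so neither is counted as changed.

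Hamp encodes hepcidin, the hormone that closes the iron exporter ferroportin. At 48 h its signals were 828, 743, 767, 727 and 572 at 3000 µM, against 2374, 2062, 2144, 2876 and 3285 with vehicle, and the highest treated well stayed below the lowest vehicle well. The signal was 3.47-fold lower (log2 change -1.80 ± 0.20, adjusted p = 6.1e-09). At 24 h the signals were 934, 1039.8, 809, 919.8 and 823 at 3000 µM, against 1150.1, 2047, 1032, 1991 and 1796 with vehicle. Vehicle well 3 lay below 3000 µM well 2, so the ranges overlapped, and the change was 1.71-fold lower (log2 change -0.77 ± 0.20, adjusted p = 0.0024). At 300 µM Hamp had 2415, 2401, 2182, 1706 and 1514 at 48 h and 1291, 861, 1315, 771 and 1706 at 24 h, overlapping vehicle, with changes of -0.32 (adjusted p = 0.58) and -0.44 (adjusted p = 0.28). In the order of the group means every pair of neighbours overlapped, running up through 3000 µM at 48 h, 3000 µM at 24 h, 300 µM at 24 h, vehicle at 24 h, 300 µM at 48 h and vehicle at 48 h.

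**Figure D2:**
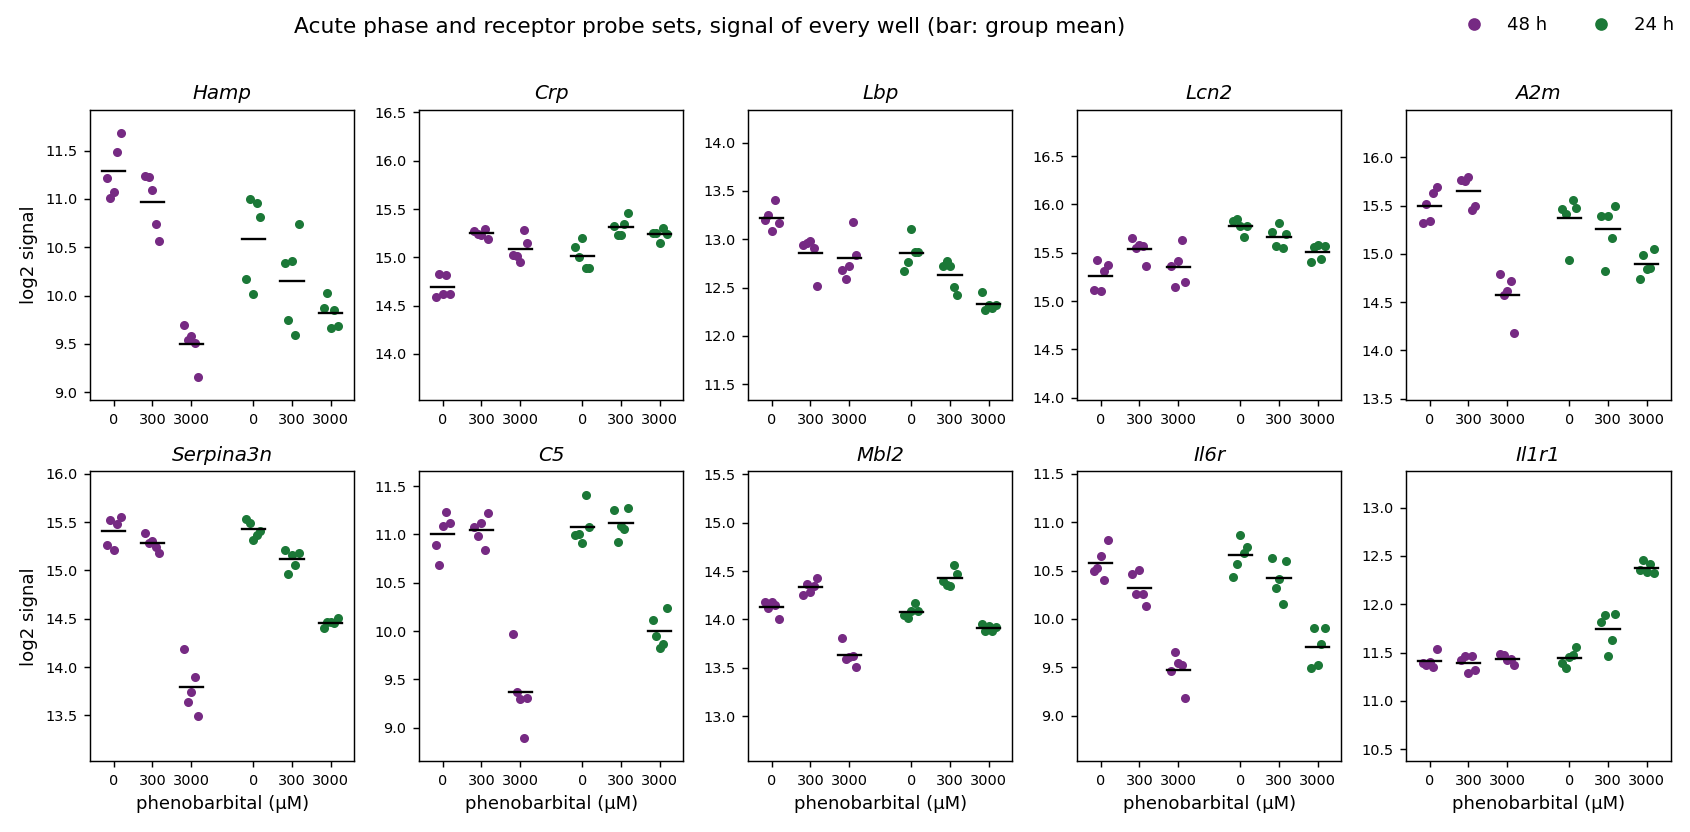
Log2 signal (y axis) of the main probe set of each of the 10 genes in every well, by phenobarbital concentration (x axis, 0 being vehicle), with 48 h on the left and 24 h on the right; a horizontal bar is the group mean over 5 wells. The 3000 µM wells of Serpina3n, C5, Mbl2 and Il6r lie below all vehicle wells at both times, and those of Il1r1 lie above them at 24 h only.

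Among the secreted proteins that bind microbes or damaged cells, Crp, C-reactive protein, which binds phosphocholine and in the rat circulates in plenty without inflammation, rose at both doses. Its signals at 48 h were 33392, 33152, 31759, 39770.5 and 36301 at 3000 µM, against 24728, 29038, 25158, 28797 and 25279.7 with vehicle. At 300 µM they were 39672, 38752, 38591, 40182 and 37368. Both doses lay wholly above vehicle, by 1.31-fold at 3000 µM (log2 change +0.39 ± 0.062, adjusted p = 5.2e-06) and 1.47-fold at 300 µM (log2 change +0.55 ± 0.062, adjusted p = 4.2e-07). At 24 h Crp had 38907, 38886, 36336, 40472 and 38684 at 3000 µM, against 35218, 32740.1, 37768, 30432 and 30358 with vehicle. At 300 µM it had 41037, 38437, 38566, 41626 and 44972. The 24 h changes were +0.22 (adjusted p = 0.0063) at 3000 µM, with overlapping ranges, and +0.30 (adjusted p = 0.0038) at 300 µM, without overlap.

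Mbl2, mannose-binding lectin C, which starts the lectin pathway of complement, rose at 300 µM and fell at 3000 µM in its brighter probe set, 1379240_at. At 48 h that probe set had 14333, 12295, 12548, 12600.1 and 11609 at 3000 µM, against 18520.4, 17785, 18563, 18122 and 16416 with vehicle, and 19562, 21092, 19959.8, 20814 and 22056 at 300 µM. At 24 h it had 15812, 15079, 15645, 15074 and 15473 at 3000 µM, against 16916, 16562, 17424, 18381 and 17399.6 with vehicle, and 21539.7, 20956, 20833, 24112 and 22757 at 300 µM. At each time every vehicle well lay above all 3000 µM wells and below all 300 µM wells. At 3000 µM the signal was 1.41-fold lower at 48 h (log2 change -0.50 ± 0.051, adjusted p = 1.4e-09) and 1.12-fold lower at 24 h (log2 change -0.17 ± 0.051, adjusted p = 0.011). At 300 µM they were +0.21 (adjusted p = 0.024) at 48 h and +0.34 (adjusted p = 5.8e-05) at 24 h. The 48 h rise did not pass without any 1 of 300 µM wells 2, 4 and 5 or vehicle well 5 (adjusted p = 0.057 to 0.10), with plain eBayes (0.060), with quantile normalization (0.075) or with array medians centred (0.21), and the 24 h fall did not pass with array medians centred (adjusted p = 0.32). The second Mbl2 probe set, 1387528_at, gave the rise but not the fall. It spanned 7469.5 to 8937 at 300 µM against 6305 to 6661 with vehicle at 48 h, and 8533 to 9494 at 300 µM against 6657 to 7728 at 24 h (+0.28, adjusted p = 0.0080, and +0.33, adjusted p = 0.0011), its 48 h rise being lost with array medians centred (adjusted p = 0.075). At 3000 µM it spanned 5176 to 6762 at 48 h and 6789 to 7590.4 at 24 h, changing by -0.07 (adjusted p = 0.40) and +0.033 (adjusted p = 0.73).

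Lbp, which hands bacterial lipopolysaccharide to CD14, fell at 3000 µM. It spanned 6168 to 9301 at 3000 µM against 8667 to 10858 with vehicle at 48 h, where only 3000 µM well 4, one of the 2 arrays with bright controls, reached into the vehicle range (log2 change -0.42 ± 0.10, adjusted p = 0.00065; -0.51 without the 2 arrays, adjusted p = 1.2e-05). At 24 h it spanned 4937 to 5629 at 3000 µM against 6545 to 8818 with vehicle, without overlap (log2 change -0.52 ± 0.10, adjusted p = 5.8e-05). At 300 µM the change was -0.36 (adjusted p = 0.049) at 48 h, which did not pass without any 1 of 9 wells, all but vehicle well 3 (adjusted p = 0.051 to 0.18), and -0.23 (adjusted p = 0.25) at 24 h. Lcn2, which starves bacteria of iron by binding their siderophores, fell at 24 h and did not pass at 48 h. It spanned 43450.0 to 49061 at 3000 µM against 51782 to 59154 with vehicle at 24 h, without overlap (log2 change -0.27 ± 0.074, adjusted p = 0.0053), a call that was lost with array medians centred (adjusted p = 0.061). At 48 h it spanned 36293 to 50803 at 3000 µM against 35191 to 43871 (+0.089, adjusted p = 0.37). At 300 µM it changed by +0.28 (adjusted p = 0.0459) at 48 h and -0.11 (adjusted p = 0.55) at 24 h. The 48 h value did not pass without any 1 of 300 µM wells 1 to 4 or vehicle wells 1, 3 and 4 (adjusted p = 0.072 to 0.15).

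Both protease inhibitors fell at 3000 µM. Serpina3n, an inhibitor of serine proteases, had 18590.2, 12748, 13753, 15236 and 11514 at 3000 µM, against 39434, 46993, 38018, 45733 and 48199.8 with vehicle, at 48 h. At 24 h it had 21698, 22606, 22711, 22399.7 and 23246 at 3000 µM, against 47269.5, 46126, 40765, 42381 and 43606 with vehicle. The highest well at 3000 µM lay below the lowest vehicle well at both times, and the signal was 3.07-fold lower at 48 h (log2 change -1.62 ± 0.083, adjusted p = 3.6e-16) and 1.95-fold lower at 24 h (log2 change -0.96 ± 0.083, adjusted p = 6.8e-11). At 300 µM it had 42992, 40011, 40324, 38872 and 37135 at 48 h and 37954, 31985, 36574, 33960.1 and 37175 at 24 h. The 48 h change was -0.13 (adjusted p = 0.62). The 24 h change was -0.31 (adjusted p = 0.031), without overlap, and did not pass without any 1 of vehicle wells 1, 2 and 5 or 300 µM wells 2 and 4 (adjusted p = 0.053 to 0.11), nor without the 2 arrays with bright controls (0.068). This call was also lost with no filter, with plain eBayes, with quantile normalization and with array medians centred, 10 of 19 alternatives in all. The 3000 µM wells at 48 h were the lowest of all groups, below the 3000 µM wells at 24 h without overlap.

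A2m, alpha-2-macroglobulin, a trap for proteases and in the rat a strongly inducible acute phase protein, spanned 18538 to 28325 at 3000 µM against 40868 to 53046 with vehicle at 48 h, without overlap (1.90-fold lower, log2 change -0.92 ± 0.12, adjusted p = 2.8e-07). At 24 h it spanned 27326 to 33931 at 3000 µM against 31257 to 48244 with vehicle (1.39-fold lower, log2 change -0.47 ± 0.12, adjusted p = 0.0029). The 24 h ranges overlapped through vehicle well 3, which had 31257, the lowest of its group as it was for Hamp (1032). At 300 µM the changes were +0.15 (adjusted p = 0.71) at 48 h and -0.12 (adjusted p = 0.74) at 24 h.

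C5, the complement protein whose cleavage gives the attractant C5a and begins the membrane attack complex, fell at 3000 µM at both times. Its signals at 48 h were 1003, 661, 631, 477 and 635 at 3000 µM, against 1894, 1645, 2174, 2406 and 2217 with vehicle. At 24 h they were 1108, 990.1, 906, 931 and 1211 at 3000 µM, against 2033, 2048, 1919.8, 2712 and 2161 with vehicle. The groups did not overlap at either time, and the signal was 3.10-fold lower at 48 h (log2 change -1.63 ± 0.13, adjusted p = 1.2e-11) and 2.11-fold lower at 24 h (log2 change -1.08 ± 0.13, adjusted p = 1.2e-07). At 300 µM it had 2162, 2032, 2216, 1832 and 2387 at 48 h and 2435, 1938, 2177, 2131 and 2469 at 24 h, within the vehicle range (+0.047, adjusted p = 0.94, and +0.041, adjusted p = 0.94).

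Between the doses, 9 member probe sets passed at 48 h, all lower at 3000 µM than at 300 µM, where 34.9% of all passed (17.9% higher and 16.9% lower), and 8 passed at 24 h, 1 higher and 7 lower, where 26.1% of all passed (13.9% higher and 12.2% lower). The doses did not overlap for 7 members at 48 h and 6 at 24 h, where 21.3% and 22.3% of all did not. At 48 h the signal at 3000 µM was 3.20-fold lower for C5 (log2 change -1.68 ± 0.13, adjusted p = 1.0e-11), 2.81-fold lower for Serpina3n (adjusted p = 6.3e-15), 2.78-fold lower for Hamp (adjusted p = 3.3e-07), 2.11-fold lower for A2m (adjusted p = 2.2e-08) and 1.80-fold lower for Il6r (adjusted p = 3.8e-07). At 24 h C5 was 2.17-fold lower, Il6r 1.64-fold lower and Serpina3n 1.57-fold lower (adjusted p = 9.2e-08, 1.2e-05 and 2.5e-07), while Il1r1 was 1.56-fold higher (adjusted p = 1.5e-08). Mbl2 stood lower at 3000 µM by both probe sets at both times, by -0.71 and -0.35 on the log2 scale at 48 h and -0.51 and -0.30 at 24 h. The Hamp difference at 24 h was -0.34 (adjusted p = 0.22), and Lbp at 48 h was -0.06 (adjusted p = 0.68). Near the threshold were Crp (-0.16, adjusted p = 0.041) and Lcn2 (-0.19, adjusted p = 0.045) at 48 h, and Lbp (-0.30, adjusted p = 0.020) and A2m (-0.36, adjusted p = 0.028) at 24 h. Crp did not pass without any 1 of 300 µM wells 1 to 4 or 3000 µM wells 1 to 3 (adjusted p = 0.059 to 0.13), and Lcn2 without any 1 of 300 µM wells 1 to 4 or 3000 µM wells 1, 2 and 5 (0.058 to 0.16). Lbp did not pass without any 1 of 300 µM wells 1 to 3 (0.0502 to 0.060), and A2m without any 1 of 300 µM wells 1, 3 and 5 or 3000 µM wells 1, 3 and 4 (0.054 to 0.089).

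The time of culture alone moved 4 member probe sets in vehicle wells, 2 each way, where 7.2% of all passed (4.05% higher and 3.15% lower), and 3 members did not overlap, where 8.27% of all did not. Relative to 24 h, Lcn2 was 1.43-fold lower (-0.51, adjusted p = 1.4e-05) and Crp 1.25-fold lower (-0.32, adjusted p = 0.00086) at 48 h, while Hamp was 1.63-fold higher (+0.70, adjusted p = 0.023) and Lbp 1.29-fold higher (+0.36, adjusted p = 0.016). Hamp did not pass without any 1 of vehicle wells 1 and 3 at 24 h or 4 and 5 at 48 h (adjusted p = 0.065 to 0.098), nor without the 2 arrays with bright controls (+0.60, adjusted p = 0.076). Lbp did not pass without vehicle well 1 at 24 h or 4 at 48 h (0.059 to 0.061).

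The effect of 3000 µM was then compared between the times with an interaction term, as the change at 48 h minus the change at 24 h. It passed for 5 member probe sets, 1 higher and 4 lower, where 4.15% of all passed (1.38% higher and 2.77% lower). Serpina3n fell further at 48 h (log2 change -0.65 ± 0.12, adjusted p = 0.0015), as did Mbl2 in its brighter probe set (log2 change -0.33 ± 0.073, adjusted p = 0.0087) and Hamp (log2 change -1.02 ± 0.28, adjusted p = 0.032), and the Il1r1 effect was smaller (log2 change -0.91 ± 0.10, adjusted p = 2.3e-06). Lcn2 differed by +0.36 (adjusted p = 0.0474). For Hamp and Lcn2 the vehicle wells themselves moved from 24 h to 48 h, by +0.70 and -0.51. At 3000 µM the mean log2 signal of Hamp was 9.82 at 24 h and 9.50 at 48 h, with overlapping ranges. That of Lcn2 was 15.51 at 24 h and 15.35 at 48 h. The Mbl2 call was lost with array medians centred (adjusted p = 0.076), and the second Mbl2 probe set did not pass (-0.10, adjusted p = 0.56). C5 (-0.55, adjusted p = 0.094), A2m (-0.45, adjusted p = 0.14), Crp (+0.17, adjusted p = 0.30), Lbp (+0.11, adjusted p = 0.74) and Il6r (-0.15, adjusted p = 0.66) did not pass. The Hamp call was lost without any 1 of 8 wells (adjusted p = 0.052 to 0.065), namely vehicle wells 1 and 3 and 3000 µM wells 1, 2 and 4 at 24 h, and vehicle wells 4 and 5 and 3000 µM well 5 at 48 h, and without the 2 arrays with bright controls (-0.92, adjusted p = 0.072). The Lcn2 call was lost without any 1 of 15 wells, all but vehicle well 4 at 24 h and vehicle wells 2 and 5 and 3000 µM wells 2 and 5 at 48 h (0.051 to 0.10), and without the 2 arrays (+0.27, adjusted p = 0.11). For 300 µM, limma called 0 members and 0 of all probe sets (3 of the 13 member probe sets and 1251 of all had an unadjusted p under 0.05), and other settings called 0 members and 0 to 3 probe sets.

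**Figure D3:**
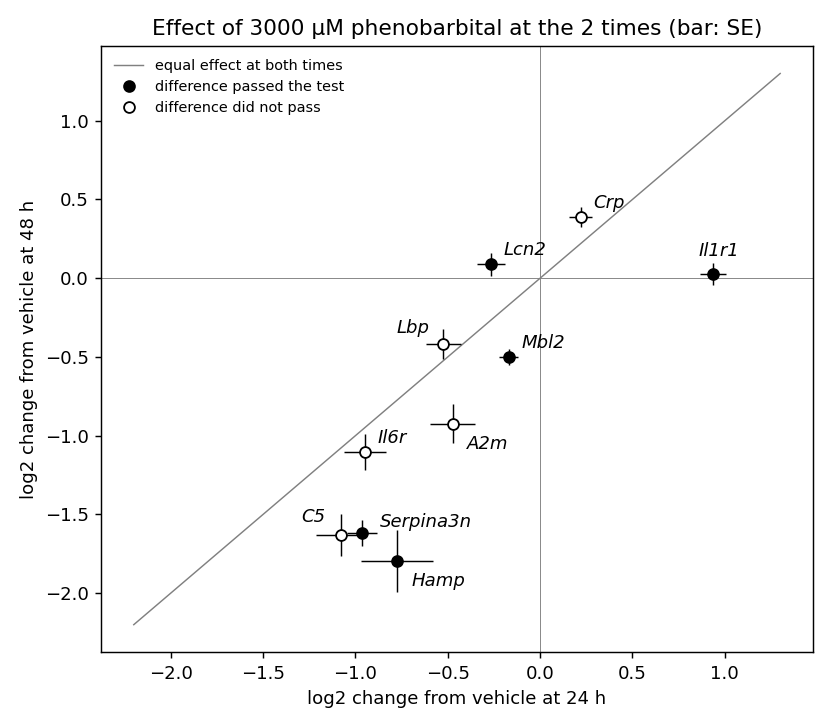
Log2 change at 3000 µM relative to vehicle at 24 h (x axis) and at 48 h (y axis) for the main probe set of each gene; bars are SE, with 5 wells a group, and the diagonal marks equal change. Hamp (-1.80 at 48 h and -0.77 at 24 h) and Serpina3n (-1.62 and -0.96) lie below the diagonal, and Il1r1 (+0.028 and +0.94) lies far to the right.

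Other acute phase and complement genes of the liver were read from lists that hold none of the 10 members. The lists were chosen with earlier results of these data known, so their counts are not an independent test. C3, Cfb and Il1rn stand in 2 lists each. The medians of all probe sets tested and the shares called at 3000 µM, given above, are the background for each list. Of 20 positive acute phase genes listed, 16 were on the array and tested, and 9 fell and 0 rose at 3000 µM at each time, with median changes of -0.36 at 48 h and -0.30 at 24 h. With array medians centred 8 fell at 48 h and 6 at 24 h, with quantile normalization 10 and 7, and without the 2 arrays with bright controls 10 and 13. Under these settings 1 gene, Mt2A, rose, at 48 h with array medians centred and at 24 h with quantile normalization. The fibrinogen chain Fga -1.28 (adjusted p = 9.3e-15), serum amyloid P, Apcs -0.86 (adjusted p = 4.7e-14), a kininogen, Kng2l1 -0.75 (adjusted p = 3.8e-10), and ceruloplasmin, Cp -0.72 (adjusted p = 2.3e-08), fell most at 48 h. The kininogen genes are near-identical copies, so which of them the probe set measures is uncertain. At 24 h the largest falls were Fga -0.80 (adjusted p = 6.1e-10), Fgb -0.55 (adjusted p = 7.9e-07), Apcs -0.52 (adjusted p = 7.1e-09) and Fgg -0.48 (adjusted p = 8.7e-07), all but Apcs being fibrinogen chains. At 300 µM, 1 passed at 24 h, Apcs -0.19 (adjusted p = 0.0486), a call lost with array medians centred, with quantile normalization, without the 2 arrays (adjusted p = 0.080 to 0.23) and without any 1 of vehicle wells 1 to 3 or the 300 µM wells (0.083 to 0.14). For this list limma called 0 at 300 µM and 48 h, where 0 had an unadjusted p under 0.05 and quantile normalization called 1.

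Of 33 complement and lectin pathway genes listed, 25 were on the array and 21 tested, of which 16 fell and 1 rose at 48 h and 18 fell at 24 h at 3000 µM, with medians of -0.50 and -0.44. The proteases Masp1 -1.22 (adjusted p = 7.3e-09) and C1s -1.09 (adjusted p = 5.6e-12), the inhibitor chain C4bpb -1.07 (adjusted p = 1.7e-08) and the pore protein C9 -0.99 (adjusted p = 7.7e-10) fell most at 48 h. At 24 h they were Masp1 -0.76 (adjusted p = 4.0e-05), C1s -0.65 (adjusted p = 3.8e-07), Mbl1 -0.63 (adjusted p = 4.2e-05), which encodes the other mannose-binding lectin, and C4bpa -0.55 (adjusted p = 4.5e-05). With array medians centred, with quantile normalization or without the 2 arrays with bright controls, 15 to 17 fell at 48 h and 17 to 18 at 24 h. Under each of these settings 1 rose at each time, at 24 h Clu, which had not passed in the main fit. At 300 µM limma called 0 at both times (5 had an unadjusted p under 0.05 at 48 h and 7 at 24 h), and without the 2 arrays 1 was called at 24 h. Of 9 hepatocyte markers in the same wells, 4 fell at 48 h (median +0.088) and 6 at 24 h (median -0.29), and 0 rose. Alb, Ttr, Apoa1, Serpina1 and Tat had higher means than vehicle at 48 h. Among all probe sets tested, 19.9% were called lower at 48 h and 14.8% at 24 h. The part of these markers in the list counts was not tested.

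**Figure D4:**
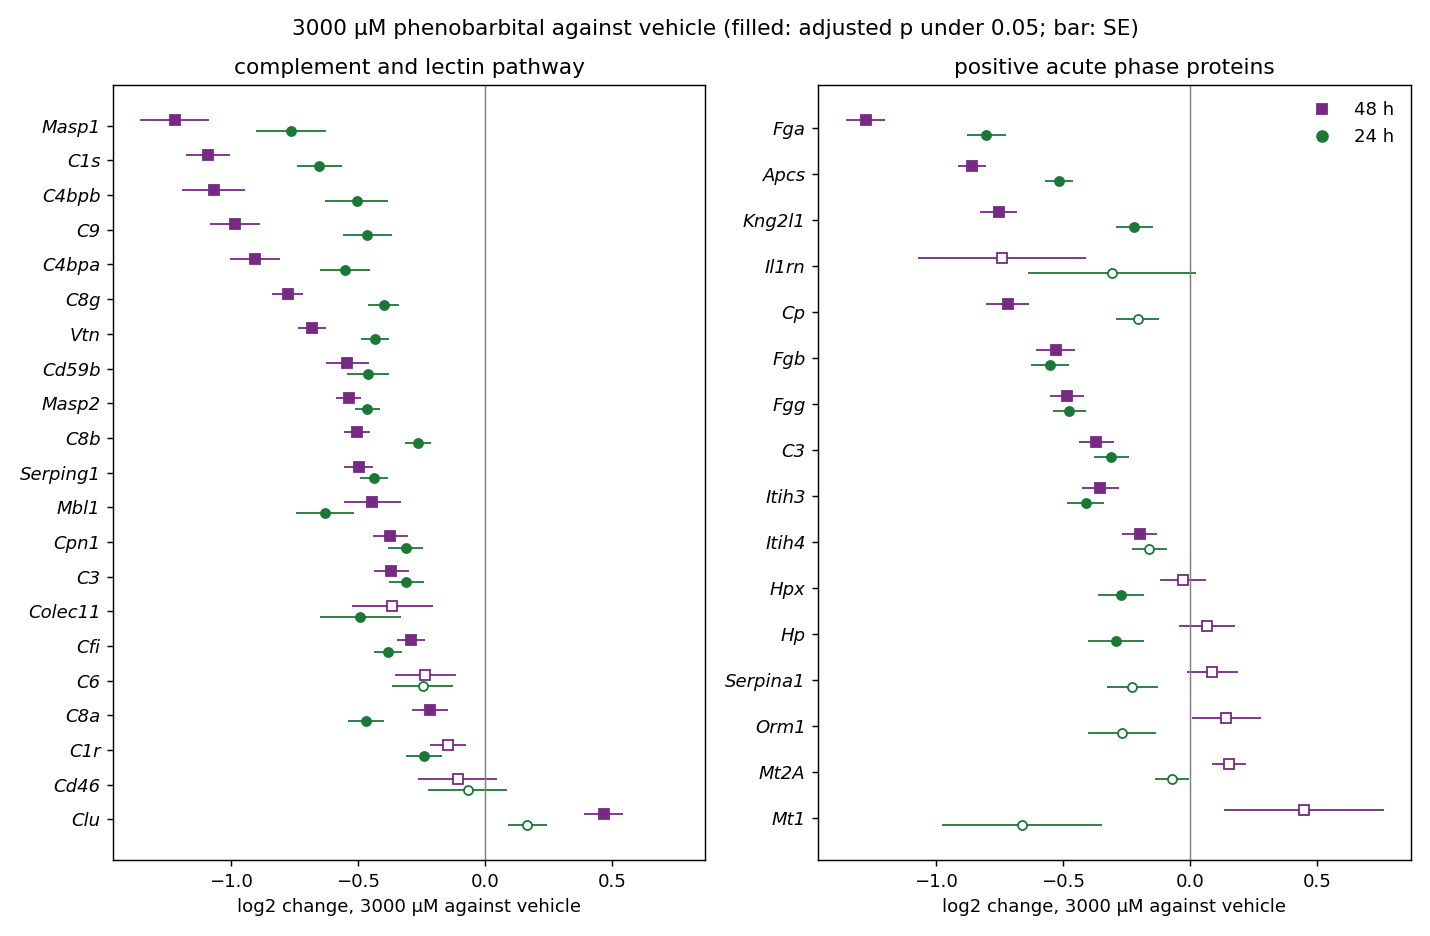
Log2 change at 3000 µM relative to vehicle (x axis) for each tested gene of the complement and positive acute phase lists (rows), with squares for 48 h and circles for 24 h; 5 wells a group. Most points lie left of 0, with Fga (-1.28), Masp1 (-1.22) and C1s (-1.09) among the lowest at 48 h.

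Negative acute phase genes are those whose products normally fall in inflammation. Of 7 listed, 6 were on the array and tested, and 3 of them are also hepatocyte markers. The corticosteroid carrier Serpina6 +0.46 (adjusted p = 0.028) rose at 3000 µM and 48 h and 0 fell, with a median of +0.11. It did not pass without any 1 of vehicle wells 1 and 3 or 3000 µM wells 2 and 3 (adjusted p = 0.063 to 0.12). At 24 h 4 fell, Rbp4 -0.40 (adjusted p = 0.00052), Ttr -0.29 (adjusted p = 0.027), Apoa1 -0.27 (adjusted p = 0.014) and Ahsg -0.27 (adjusted p = 0.018), with a median of -0.27. With array medians centred or with quantile normalization 1 fell, Ttr, Apoa1 and Ahsg being lost (adjusted p = 0.054 to 0.14). Without vehicle well 1 these 3 did not pass either (0.063 to 0.13), nor Ttr without 3000 µM well 5 (0.052). At 300 µM limma called 0 (0 had an unadjusted p under 0.05 at 48 h and 5 at 24 h).

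Of 19 genes of interleukin-6 and STAT3 signalling listed, 17 were on the array and 13 tested, of which 2 rose and 3 fell at 3000 µM at each time, with medians of +0.047 at 48 h and +0.018 at 24 h. The transcription factor Cebpd +0.77 (adjusted p = 0.00029) and the receptor Il11ra1 +0.58 (adjusted p = 0.010) rose at 48 h, while Cebpa -0.61 (adjusted p = 4.1e-06), a factor of the differentiated hepatocyte, and Bcl3 -0.36 (adjusted p = 0.015) fell. Il11ra1 did not pass without vehicle well 2 (adjusted p = 0.066), nor Bcl3 without 3000 µM well 5 (0.072). At 24 h Cebpd +0.62 (adjusted p = 0.0036) and Il11ra1 +0.53 (adjusted p = 0.023) rose, and Cebpa -0.39 (adjusted p = 0.0018) and Stat3 -0.30 (adjusted p = 0.032) fell. With array medians centred 1 gene fell at 24 h, with Stat3 lost (adjusted p = 0.080), and Stat3 also did not pass without any 1 of vehicle wells 3 to 5 or 3000 µM wells 1, 3, 4 and 5 (0.053 to 0.086). Il11ra1 at 24 h did not pass without any 1 of vehicle wells 2, 4 and 5 or 3000 µM well 4 (0.053 to 0.070). At 300 µM the gp130 chain Il6st -0.22 (adjusted p = 0.036) fell at 48 h, as did Il6st -0.24 (adjusted p = 0.013) at 24 h, and Bcl3 +0.42 (adjusted p = 0.045) rose at 24 h. With array medians centred all of these calls were lost (adjusted p = 0.077 to 0.28). Il6st did not pass without any 1 of vehicle wells 1, 3, 4 and 5 or 300 µM wells 2, 4 and 5 at 48 h (0.071 to 0.15), or without 300 µM well 2 at 24 h (0.061), and Bcl3 did not pass without any 1 of vehicle wells 2, 3 and 5 or the 300 µM wells (0.055 to 0.15). Il6 itself did not pass the filter on low signals.

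Of 27 genes of interleukin-1, TLR4 and NF-kB signalling listed, all were on the array and 22 tested. Among those at the filter level in both groups, 3 rose and 4 fell at 48 h and 5 rose and 1 fell at 24 h at 3000 µM, with medians of -0.011 and -0.056 over the 22. The inhibitor Nfkbib +1.05 (adjusted p = 2.5e-08) and the TLR4 partner Ly96 +0.97 (adjusted p = 1.5e-09) rose at 48 h, and Nfkbiz -0.95 (adjusted p = 1.8e-05) fell. At 24 h Nfkbib +0.70 (adjusted p = 3.8e-05), Ly96 +0.61 (adjusted p = 1.3e-05) and Nfkbia +0.39 (adjusted p = 0.00011) rose. The TNF receptor gene Tnfrsf1b had mean log2 signals of 8.84 at 3000 µM against 6.92 with vehicle at 48 h, and 9.01 against 5.95 at 24 h. It entered the fit through the wells where it was high and is not counted. At 300 µM limma called 0 (2 had an unadjusted p under 0.05 at 48 h and 3 at 24 h). Il1a, Il1b, Tnf and Tlr4 did not pass the filter.

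Of 21 genes of hepcidin regulation and iron listed, 18 were on the array and 16 tested, of which 6 fell at 48 h, and 2 rose and 4 fell at 24 h at 3000 µM, with medians of -0.11 and -0.023. The BMP target Id1 -0.84 (adjusted p = 0.00087), the transducer Smad1 -0.58 (adjusted p = 1.4e-08), the BMP receptor Acvr1 -0.52 (adjusted p = 0.0011) and the iron sensor Tfr2 -0.40 (adjusted p = 0.020) fell at 48 h, Tfr2 not passing without vehicle well 4 or 3000 µM well 3 or 5 (adjusted p = 0.05004 to 0.088). At 24 h Hfe -0.40 (adjusted p = 0.0072), which acts with Tfr2, Tfr2 -0.35 (adjusted p = 0.0496) and ferroportin, Slc40a1 -0.32 (adjusted p = 8.4e-05), fell and Smad5 +0.34 (adjusted p = 0.0097) rose. Tfr2 at 24 h did not pass with array medians centred (adjusted p = 0.12), without the 2 arrays (0.071) or without any 1 of vehicle wells 1, 4 and 5 or 3000 µM wells 1, 2, 3 and 5 (0.068 to 0.15), and 2 genes fell with array medians centred. At 300 µM limma called 0 at both times, and 0 had an unadjusted p under 0.05.

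Likeness of pattern was described by Pearson's r of log2 signal over the 30 arrays, against 9821 other genes, and all of these arrays share the same 6 groups. The highest were Fga 0.98, Acsm1 0.97 and Decr1 0.97 for Serpina3n, Poteml2 0.97, Fbxo9 0.97 and Slc30a10 0.96 for C5, Pc 0.95, Synrg 0.94 and Txnip 0.94 for Il6r and Lmcd1 0.92, Acta1 0.91 and Tm4sf4 0.91 for Hamp. For Il1r1 they were Idi1 0.89, Ndufaf4 0.87 and Sqle 0.87, and for Mbl2 Car5a 0.93, Tlcd4 0.92 and Afmid 0.92. For Crp they were Cyb5a 0.86, Cyp2c6v1 0.84 and Ugt2b1 0.83, and for A2m LOC102550366 0.92, Lox 0.92 and Fgg 0.92. For Lbp they were Myo1d 0.87, Rhoc 0.84 and Wdr1 0.83, and for Lcn2 Slc22a18 0.85, Serpinc1 0.81 and Fetub 0.79.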

How the data were processed

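RNA from 30 wells of rat hepatocytes was measured on Rat Genome 230 2.0 arrays. Per the submitters' processing notes the deposited values are MAS5 signals, used here as linear intensity per probe set. The deposited arrays share a trimmed mean of 1500.6 to 1500.7 with 2% left out at each end, and their medians were 349 to 424.9. Array files give no read depth, and 5 arrays a group limit the precision. Of 31099 probe sets, 57 controls were left out. Probe sets were named from the platform annotation, with symbols updated through RefSeq tables. Signals were put on the log2 scale and kept where the mean of at least 1 group reached 8.58 (a signal of 384), the median over all deposited values, which left 16596. One limma fit (version 3.58.1, R 4.3.3) over the 6 groups, with trended and robust eBayes and Benjamini-Hochberg adjustment, gave all tests. The fit was tested on simulated data. Genes with several probe sets are described by the one with the highest mean. Text names every member, up to 4 changed genes with the largest change per list and per comparison with vehicle, and the 3 most similar genes per member. Members and lists were chosen with earlier results of these data known. Alternatives were other scalings, filters, fits and left-out wells. Wells are numbered within each group in order of deposit, and the main fit used no pairing by these numbers.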

Additional observations from a re-analysis of the deposited data

Results flagged for a closer look

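Of 78 groups of 5 wells, 5 held a well far from its fellows, and chance flags about 1 in 20 groups. Lbp was 5629 in 3000 µM well 1 at 24 h, against 4937 to 5126 in the other wells, and 5857 in 300 µM well 5 at 48 h, against 7684 to 8089. A2m was 31257 in vehicle well 3 at 24 h, against 43599 to 48244. Il1r1 probe set 1392946_at was 2964 in vehicle well 5 at 48 h, against 2610.1 to 2705, and the dim probe set 1369255_at was 230.5 in vehicle well 5 at 24 h, against 325 to 371.

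The effect of 3000 µM differed between the times by an interaction term for 5 members, where 4.15% of all probe sets passed. As the log2 change at 48 h minus that at 24 h, it was -1.02 for Hamp, -0.65 for Serpina3n, -0.33 for Mbl2, -0.91 for Il1r1 and +0.36 for Lcn2. The Hamp call was lost without any 1 of 8 wells and the Lcn2 call without any 1 of 15. Both were lost without the 2 arrays with bright controls, where 3 members passed. The Mbl2 call was lost with array medians centred, and the second Mbl2 probe set did not pass.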

How the results depend on the processing

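Counts over all 13 member probe sets were recomputed under 19 alternatives, 29 for the difference between times. They include the 2 Il1r1 probe sets set aside above, which passed the filter only through the wells where they were highest. At 3000 µM against vehicle, the only calls that leaving out 1 well ended were those of the set-aside Il1r1 probe set 1370750_a_at. This took 6 single wells at 48 h and 2 at 24 h, and the 11 counted probe sets lost no call there. At 3000 µM the main fit called 9 of the 13 at 48 h and 11 at 24 h, against 8 and 10 of the 11 above. Between doses it called 10 at 48 h and 8 at 24 h, against 9 and 8. The shares of all probe sets called in the main fit are those given above. Of 2483 alternative values 2281 kept their direction and side, 139 lost a call, 13 gained one, 0 reversed and 50 changed sign without a call in either setting. At 300 µM and 48 h, 5 became 3 with no filter or quantile normalization, 2 with plain eBayes and 1 with array medians centred. Centring also gave 3 for 300 µM at 24 h, 2 for vehicle over time and 2 for the difference between times of 3000 µM. That difference fell to 3 with no filter, with plain eBayes or without the 2 arrays with bright controls, an alternative chosen after seeing the data. Leaving out 1 well gave 8 to 9 at 3000 µM and 48 h, 10 to 11 at 3000 µM and 24 h, 2 to 4 at 300 µM and 48 h (2 without 300 µM well 2 or 4), 3 to 5 at 300 µM and 24 h (3 without 300 µM well 2), 7 to 10 and 6 to 8 between doses at 48 h and 24 h, 2 to 4 for vehicle over time (2 without vehicle well 1 at 24 h or 4 at 48 h), 3 to 5 for the difference between times of 3000 µM and 0 to 0 for that of 300 µM.

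The title numbers fall into sets of 6 that could pair wells. Deviations from group means correlated at -0.064 to 0.094 between arrays of the same set, and 0 of 75 pairs passed 0.1. Of 30 arrays, 5 matched their own set best. No pairing was seen, but this check cannot exclude that wells of a set shared plating or handling. With the sets as a replicate block the counts over the 13 member probe sets were 9 and 11 at 3000 µM (48 h and 24 h), 4 and 5 at 300 µM, 9 and 8 between doses, 4 for vehicle over time, and 4 and 0 for the differences between times.

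Over all probe sets, 300 µM at 24 h called 496 in the fit of all groups, 226 with medians centred, and 325 and 326 without 300 µM wells 2 and 4. At 48 h it called 255, against 124 centred, 482 with the compared groups alone, 615 with array weights, 168 without vehicle well 4 and 467 without the 2 arrays. Vehicle over time called 1195, against 734 centred. The difference between times of 3000 µM called 688, against 362 unfiltered, 232 centred, 319 with the compared groups alone, and 410 to 441 without 1 of 5 wells, namely 3000 µM well 1 or 4 or vehicle well 2 at 24 h, or vehicle well 1 or 3 at 48 h. Centring moved the split of higher against lower calls to 3406 and 1678 at 3000 µM and 24 h (2868 and 2451 uncentred), to 83 and 41 (135 and 120) at 300 µM and 48 h, to 152 and 74 (285 and 211) at 300 µM and 24 h, to 2724 and 1363 (2310 and 2026) between doses at 24 h, to 269 and 465 (672 and 523) for vehicle and to 42 and 190 (229 and 459) for the difference between times. The median of all probe sets stayed within -0.043 to 0.075.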
